A study of Arabidopsis thaliana with 28 samples.

Results

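The genes described here encode Rubisco small subunits, Rubisco activase and enzymes of the Calvin cycle. They were chosen by locus identifier: *RBCS1A* (AT1G67090), *RBCS1B* (AT5G38430), *RBCS2B* (AT5G38420), *RBCS3B* (AT5G38410), *RCA* (AT2G39730), *PRK* (AT1G32060), *GAPA1* (AT3G26650), *GAPB* (AT1G42970), *SBPASE* (AT3G55800) and *FBA2* (AT4G38970), 10 of the 27371 genes in the tables. Values came from RNA sequencing of whole 14-day-old *Arabidopsis thaliana* seedlings grown on sugar-free medium, in 2 experiments with a table each. In the first, seedlings of the *idd4* T-DNA line (Salk_148352C) and Col-0 wild type (WT, ColO in the labels) were compared after 1 h of 1 µM flg22, a peptide of bacterial flagellin that plants sense as a sign of infection, and untreated, with 3 samples listed per group. In the second, seedlings carrying *pUBI10::IDD4:GFP* (*IDD4ox*), *pUBI10::IDD4-AA:RFP* (*IDD4-AA*) or *pUBI10::IDD4-DD:RFP* (*IDD4-DD*) in Col-0 were compared with a WT of their own, with 2 samples listed per group and no treatment named for them. In *IDD4-AA* serine 73 and threonine 130, both phosphorylation sites of IDD4, are changed to alanine (phospho-dead), and in *IDD4-DD* to aspartic acid (phospho-mimic). All 3 transgenes are driven by a ubiquitin promoter active in most cells, over the intact *IDD4* gene of Col-0.

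Levels are in FPKM (fragments per kilobase of a transcript, relative to all mapped fragments), and the authors had combined the replicates into 1 value per gene and group. These values therefore carry no replicate error, no test and no read depth, and every difference below is one between 2 of them. The paper reports tests of its own for *idd4* against WT. Its results for the untreated comparison hold 6 of the genes described here, with the same values, and its tests were not used here. An exact 0 may stand for a gene that the program failed to estimate. *IDD4* itself was listed at 23.0 FPKM in the untreated seedlings labelled *idd4*, against 14.5 FPKM in untreated WT. After flg22 it was listed at 22.4 FPKM in those labelled *idd4*, against 5.69 FPKM in WT. The gene was thus higher, not lower, in both groups labelled *idd4*, so that their labels are not borne out by the transcript level. Below, "*idd4*" means the group so labelled. The paper describes this line as a homozygous knockout with a T-DNA in the first exon, examined by RT-PCR and restored by a complementation construct. FPKM of the gene does not tell whether its transcript is intact. In the second experiment *IDD4* was at 197 FPKM in *IDD4ox*, 71.6 FPKM in *IDD4-AA* and 198 FPKM in *IDD4-DD*, against 9.23 FPKM in WT. The seedlings were whole plants: the sum of 16 root marker genes was 186 and 237 FPKM in *idd4* (after flg22 and untreated) and 239 and 247 FPKM in WT, and in the second experiment it lay between 346 and 369 FPKM in the 3 lines, against 579 FPKM in WT, with no root marker at 0. In whole seedlings fewer green cells and less RNA per green cell cannot be told apart, and the part of tissue makeup in the differences below was not tested.

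Rubisco fixes CO2 onto ribulose bisphosphate and is built of a large subunit made in the chloroplast and small subunits made from nuclear *RBCS* genes. Rubisco activase (*RCA*) frees the active site of inhibitory sugar phosphates. In the Calvin cycle the product is then phosphorylated and reduced, the reduction being carried out by plastid glyceraldehyde-3-phosphate dehydrogenase, whose A and B subunits are encoded by *GAPA1* and *GAPB*. Plastid aldolase (*FBA2*) and sedoheptulose-bisphosphatase (*SBPASE*) take part in rebuilding the acceptor, and phosphoribulokinase (*PRK*) makes ribulose bisphosphate again. In leaves these genes are among the most highly expressed, they are induced by light, and transcripts of photosynthesis commonly fall when plants mount a defence.

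In the TAIR10.1 build *RBCS1B* (chr5:15383167-15385320), *RBCS2B* (chr5:15380907-15382071) and *RBCS3B* (chr5:15376988-15378642) lie in tandem on the minus strand of chromosome 5, whereas *RBCS1A* stands alone (chr1:25048158-25049667, minus strand). Each of the 4 genes has 3 exons. The tandem copies are close to identical, which bears on how reads were divided among them. Their coding sequences share 97.3% of aligned bases between *RBCS1B* and *RBCS2B*, 94.3% between *RBCS2B* and *RBCS3B* and 94.1% between *RBCS1B* and *RBCS3B*, while *RBCS1A* shares between 87.7% and 90.1% with them. A stretch of the second coding exon, of 101 bases as the reads, shows this. Capitals mark bases that differ from *RBCS1B* (RefSeq, TAIR10.1, coding strand; chr5:15384795-15384895, chr5:15381617-15381717, chr5:15377945-15378045 and chr1:25048872-25048972 in the order shown).

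RBCS1B: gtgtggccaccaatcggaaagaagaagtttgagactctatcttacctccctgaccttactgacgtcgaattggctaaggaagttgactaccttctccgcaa
RBCS2B: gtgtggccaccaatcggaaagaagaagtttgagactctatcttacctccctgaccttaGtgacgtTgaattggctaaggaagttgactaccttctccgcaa
RBCS3B: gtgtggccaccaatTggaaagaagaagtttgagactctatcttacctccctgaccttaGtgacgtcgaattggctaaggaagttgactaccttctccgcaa
RBCS1A: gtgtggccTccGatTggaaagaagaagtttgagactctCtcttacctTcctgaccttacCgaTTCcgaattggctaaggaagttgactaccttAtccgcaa

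Here *RBCS2B* and *RBCS3B* each differ from *RBCS1B* at 2 bases and *RBCS1A* at 10. With the 2 mismatches that the alignment allowed, 70.6% of all 101-base windows of the *RBCS1B* coding sequence also matched another copy, as did 72.9% of those of *RBCS2B* and 43.8% of those of *RBCS3B*, but 0 of the 443 windows of *RBCS1A*. Values of the 3 tandem genes are therefore uncertain one by one, and their sum is given beside them. No window of *GAPA1*, *GAPB* or *FBA2* matched the paralogs compared (*GAPA2*, *GAPA1* and *FBA1*).

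The region around each annotated gene start (250 bases before to 50 after) was searched on both strands for AGACAA, the core bound by INDETERMINATE domain proteins such as IDD4, for the G-box CACGTG and for the I-box GATAAG, both of the boxes being elements known from light-regulated *RBCS* promoters. The I-box was present in 4 of the 10 genes, against 14.6% of 27443 gene starts, the G-box in 2 of 10, against 7.68%, and AGACAA in 3 of 10, against 23.6%. *RBCS2B* held the most of any member, with I-boxes beginning at bases -146, -115 and -94 from the gene start with a G-box at -123 between them, and AGACAA at base 35 past the start. The stretches before the gene starts that hold a match are shown in the direction of transcription with the matched letters in capitals (RefSeq, TAIR10.1; in the order shown chr5:15382148-15382229, chr2:16573808-16573837, chr1:11532014-11532043, chr3:9794659-9794688 and chr4:18166234-18166258). AGACAA read on the other strand is TTGTCT and the I-box is CTTATC. *GAPA1* has a further match at base -248.

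RBCS2B: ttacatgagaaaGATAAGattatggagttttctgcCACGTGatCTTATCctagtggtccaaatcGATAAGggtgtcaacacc
RCA: aacattattatcGATAAGcaatgtcattat
PRK: attagaatctccCACGTGtcaattcaaata
GAPA1: ttgttataagttTTGTCTccattgtccata
FBA2: gatgcgtTTGTCTtatgttttctgt

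In *RBCS1B* a pair of overlapping I-boxes spans the annotated gene start, 170 and 165 bases before the start codon. The I-boxes of *RBCS2B* begin between 187 and 239 bases before its start codon. *GAPB* has an I-box at base 25 past its start. *RBCS1A*, *RBCS3B* and *SBPASE* had none of the 3 motifs in this window. The window was set by the annotated gene start, whose distance from the start codon differs between genes. Bases further than 50 past that start were not searched, so that sites nearer the start codon may have been missed.

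**Figure D1:**
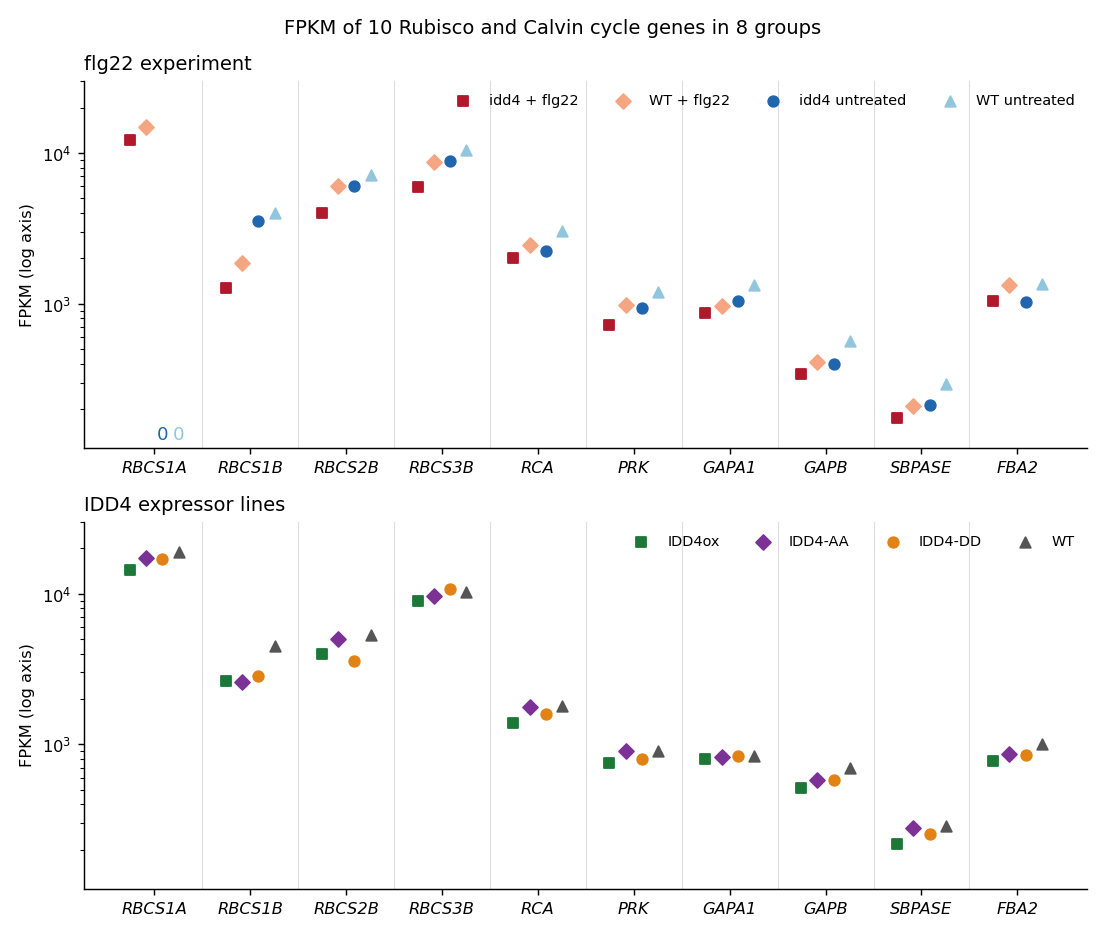
FPKM on a log axis for each of the 10 genes, with 1 point per group (the authors' value combined over replicates, no error), in the flg22 experiment (top) and the expressor lines (bottom). A coloured 0 marks *RBCS1A* in both untreated groups, where it is listed at 0. Points of *idd4* lie below those of WT at the same treatment for every gene with a value, and points of *IDD4ox* below those of WT.

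*RBCS1A*, *RBCS3B* and *RBCS2B* were the highest of the set wherever they had a value, while *RBCS1B* lay below *RCA* in both flg22 groups. *RBCS1A* was listed at 0 FPKM in untreated *idd4* and in untreated WT, although it was at 12178 FPKM in *idd4* after flg22, 14971 FPKM in WT after flg22, and between 14344 and 18810 FPKM in the second experiment, where it ranked second among nuclear genes in *IDD4ox*. The 2 values of 0 were taken as failed estimates, and no comparison with the untreated groups was made for this gene. *RBCS3B* was next, then *RBCS2B*, in every group. *SBPASE* was the lowest in all 8 groups, at 175 to 294 FPKM, and *GAPB* second lowest, at 343 to 700 FPKM. *RCA*, *FBA2*, *GAPA1* and *PRK* lay between 723 and 3053 FPKM. FPKM values are per length, so that these levels can be set beside each other.

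The first comparison asks how the *idd4* line differs from WT without elicitor. All 9 genes with a value were lower in *idd4*, by 11.5% to 29.4%, and their median log2 change was -0.36 (log2 of FPKM plus 1, as for all changes below). *RBCS1B* was at 3538 FPKM in *idd4*, against 3999 FPKM in WT. *RBCS2B* was at 6009 FPKM in *idd4*, against 7125 FPKM in WT. *RBCS3B* was at 8803 FPKM in *idd4*, against 10434 FPKM in WT. The tandem small subunit genes were thus 11.5%, 15.7% and 15.6% lower, the smallest differences of the set, and their sum was 18350 FPKM in *idd4*, against 21557 FPKM in WT. The other genes were lower by more. Rubisco activase (*RCA*) was at 2247 FPKM in *idd4*, against 3053 FPKM in WT (-0.44). The dehydrogenase subunit gene *GAPB* was at 400 FPKM in *idd4*, against 567 FPKM in WT (-0.50). *SBPASE* was at 214 FPKM in *idd4*, against 294 FPKM in WT (-0.46). These were the largest differences. The A subunit gene *GAPA1* was at 1044 FPKM in *idd4* and 1335 FPKM in WT (-0.35), *PRK* at 938 FPKM in *idd4* and 1205 FPKM in WT (-0.36), and *FBA2* at 1031 FPKM in *idd4* and 1355 FPKM in WT (-0.39).

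A small decrease was common in this comparison. Of the 18272 genes compared (above 0 in both groups and at least 1 FPKM in one), 60.8% were lower in *idd4* (median over all genes -0.054), and of the 936 with at least 100 FPKM 75% were, with a median of -0.15. No member was 1.5-fold lower, the size passed by 1.78% of all genes. The direction also rests on the scaling. With equal summed FPKM of nuclear genes the median became -0.046, and *RBCS1B*, *RBCS2B* and *RBCS3B* turned higher in *idd4*. That sum is moved by genes listed at 0 in some groups and at 1000 FPKM or more in others: outside the 10 highest genes of each group there were 10 of these, with 9904 FPKM in all in *idd4* and 88875 FPKM in WT. With the sum taken over genes above 0 in every group of the experiment, all 9 genes were lower again, with a median of -0.21. Of all genes, 16.2% were lower under the first of these scalings and 35.1% under the second.

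After flg22 the values of all 10 genes were lower in *idd4* than in WT, by 10.6% to 33.7%, with a median of -0.33. *RBCS1A* was at 12178 FPKM in *idd4*, against 14971 FPKM in WT (-0.30). *RBCS1B* was at 1273 FPKM in *idd4*, against 1871 FPKM in WT (-0.56). *RBCS2B* was at 4019 FPKM in *idd4*, against 6063 FPKM in WT (-0.59). *RBCS2B* was the only member at least 1.5-fold lower in this comparison, and *RBCS3B* was close to it, at 5928 FPKM in *idd4*, against 8719 FPKM in WT (-0.56). Among all 17868 genes 39.6% were lower in *idd4* (median 0.061) and 1.56% were 1.5-fold lower, and among the 1240 with at least 100 FPKM 38% were lower, so that here the members lay against the direction of most genes. All 10 stayed lower under each scaling tried, with medians between -0.35 and -0.33. *PRK*, at 723 FPKM in *idd4* and 977 FPKM in WT, and *FBA2*, at 1037 FPKM in *idd4* and 1339 FPKM in WT, differed by -0.43 and -0.37. *GAPA1* had the smallest difference (-0.16), with 868 FPKM in *idd4* and 972 FPKM in WT. *RCA*, *GAPB* and *SBPASE* lay between -0.29 and -0.25.

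**Figure D2:**
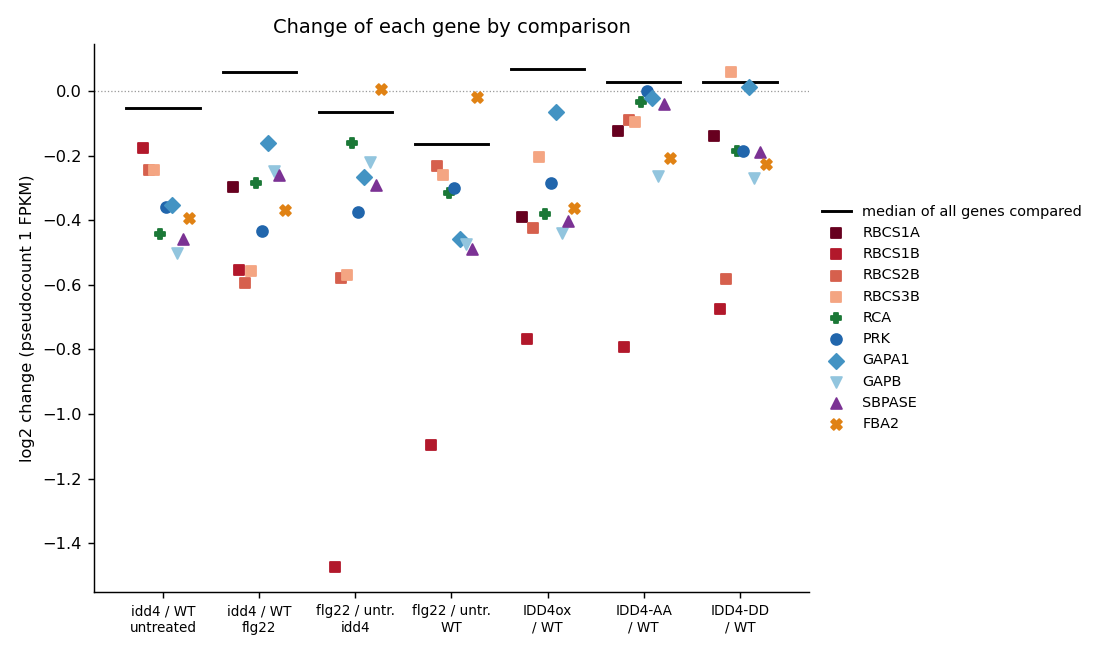
Log2 change (FPKM plus 1) of each of the 10 genes in 7 comparisons, each named as the group on top over its reference, 1 value per gene and no error. Black lines give the median of all genes compared. *RBCS1B* stands lowest in both comparisons of flg22 over untreated and in the 3 expressor lines, and *RBCS1A* is left out where it is listed at 0.

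The elicitor comparison asks what 1 h of flg22 did in each genotype. In *idd4* 8 of 9 genes with a value were lower after flg22, with a median of -0.29, and in WT all 9 were, with a median of -0.32. *RBCS1B*, one of the tandem small subunit genes, was the only member past 1.5-fold in either genotype. It was at 1273 FPKM after flg22, against 3538 FPKM untreated, in *idd4* (-1.47). In WT it was at 1871 FPKM after flg22, against 3999 FPKM untreated (-1.10). Its close copies differed by far less: *RBCS2B* by -0.58 in *idd4* and -0.23 in WT, and *RBCS3B* by -0.57 in *idd4* and -0.26 in WT. As a share of the 3 tandem genes, *RBCS1B* made up 11.3% after flg22 and 19.3% untreated in *idd4*, and 11.2% after flg22 and 18.5% untreated in WT. The sum of the 3 was 11221 FPKM after flg22, against 18350 FPKM untreated, in *idd4* (-0.71, past 1.5-fold), and 16653 FPKM after flg22, against 21557 FPKM untreated, in WT (-0.37).

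Of the enzymes of the cycle, the dehydrogenase subunits and the bisphosphatase had the larger differences in WT. *GAPB* was at 408 FPKM after flg22, against 567 FPKM untreated (-0.47), and *GAPA1* at 972 FPKM, against 1335 FPKM (-0.46). *SBPASE* was at 209 FPKM after flg22, against 294 FPKM untreated (-0.49). *RCA* and *PRK* differed by -0.32 and -0.30. The aldolase gene *FBA2* kept nearly the same value, with 1037 FPKM after flg22 and 1031 FPKM untreated in *idd4* and 1339 FPKM after flg22 and 1355 FPKM untreated in WT, a log2 change of 0.0080 in *idd4* and -0.018 in WT. Its sign turned with equal nuclear sums in *idd4* and with median-of-ratios scaling in WT. In *idd4* *GAPB*, *GAPA1* and *SBPASE* differed by -0.22, -0.27 and -0.29, *RCA* by -0.16 and *PRK* by -0.37.

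These counts sit on a broad response. In *idd4* 54.4% of 18457 genes were lower after flg22 and 19.2% at least 1.5-fold lower, with a median of -0.064. In WT 61% of 18438 genes were lower and 22% at least 1.5-fold lower, with a median of -0.16. Genes at the level of the members differed from this. Of those with at least 100 FPKM 37.8% were lower in *idd4* (median 0.32) and 45.3% in WT (median 0.15). As deposited the members thus lay against the direction of most genes of high level. As deposited, 1 of 9 members was past 1.5-fold in each genotype, a smaller share than that of all genes. Scaling to equal nuclear sums moved the medians away from 0, to -0.75 in *idd4* and -0.46 in WT. Then 8 of 9 members were at least 1.5-fold lower in *idd4* and 4 of 9 in WT, against 40.4% and 27.9% of all genes. Over genes above 0 in every group the medians were -0.72 in *idd4* and -0.60 in WT, with 8 and 5 members past 1.5-fold, against 38.6% and 35.6% of all genes.

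The 9 genes divided when the change after flg22 in *idd4* was set against that in WT. The 3 tandem *RBCS* genes had the more negative change in *idd4*, by -0.38 (*RBCS1B*), -0.35 (*RBCS2B*) and -0.31 (*RBCS3B*), and *PRK* by -0.073. *GAPB* (0.25), *SBPASE* (0.20), *GAPA1* (0.19), *RCA* (0.16) and *FBA2* (0.026) had the less negative change. So as deposited 4 of 9 were more negative in *idd4*, against 34.4% of 18043 genes, whose median difference was 0.11. Put the other way, the tandem *RBCS* genes were 32.0% to 33.7% lower in *idd4* than in WT after flg22 and 11.5% to 15.7% lower untreated, whereas *GAPB*, *SBPASE* and *RCA* were 15.9% to 18.0% lower after flg22 and 26.4% to 29.4% lower untreated. The order of the genes does not rest on the scaling, which shifts all of them alike, but the median does: it was 0.026 as deposited, -0.075 with median-of-ratios scaling, and -0.29 or -0.13 with equal nuclear sums over all genes or over those above 0 in every group. The signs rest on the scaling as well. With equal nuclear sums over all genes all 9 were more negative in *idd4*, against 72.4% of all genes. With median-of-ratios scaling and with the sum over genes above 0 in every group *FBA2* alone turned more negative. Under these scalings 46.7% and 53.5% of all genes were more negative. No test of this interaction was possible with 1 value per group.

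**Figure D3:**
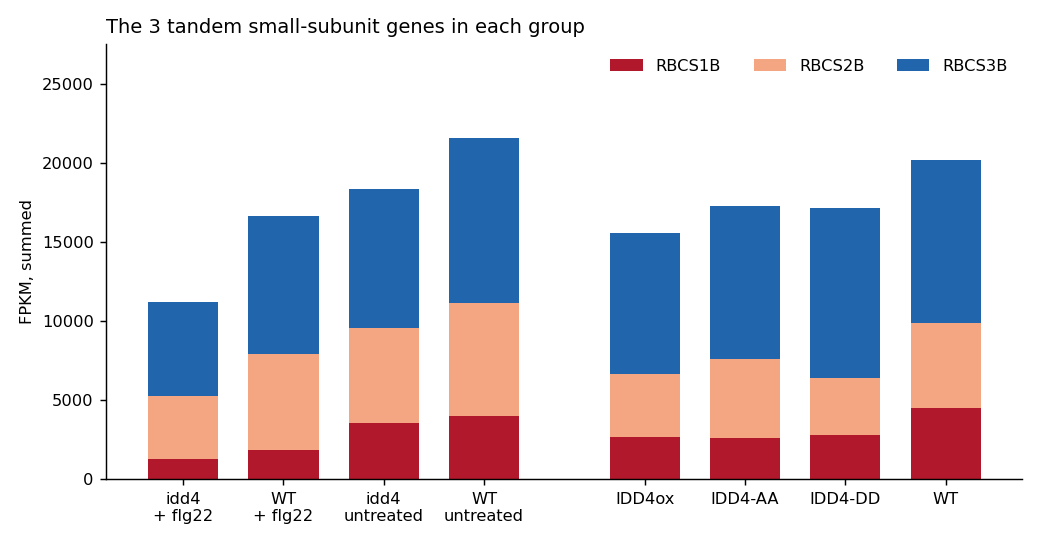
Summed FPKM of *RBCS1B*, *RBCS2B* and *RBCS3B* in each of the 8 groups, stacked by gene, from the authors' values combined over replicates. The *RBCS1B* part is smallest in both flg22 groups, and in the expressor lines it is smaller in *IDD4ox*, *IDD4-AA* and *IDD4-DD* than in their WT.

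The expressor lines ask what more IDD4, or IDD4 with altered phosphorylation sites, goes with. In *IDD4ox* all 10 genes were lower than in WT, with a median of -0.39, against 38% of 18947 genes lower and 2.29% at least 1.5-fold lower, and a median over all genes of 0.069. Of the 978 genes with at least 100 FPKM 50.8% were lower, with a median of -0.0057. The small subunit genes differed among themselves. *RBCS1B* was at 2650 FPKM in *IDD4ox*, against 4516 FPKM in WT (-0.77), the only member past 1.5-fold. *RBCS2B* was at 3979 FPKM in *IDD4ox*, against 5341 FPKM in WT (-0.42). *RBCS1A* was at 14344 FPKM in *IDD4ox*, against 18810 FPKM in WT (-0.39). *RBCS3B* differed less, with 8954 FPKM in *IDD4ox* and 10305 FPKM in WT (-0.20). *RCA* was at 1385 FPKM in *IDD4ox* and 1804 FPKM in WT (-0.38), *GAPB* at 515 FPKM in *IDD4ox* and 700 FPKM in WT (-0.44), and *SBPASE* at 218 FPKM in *IDD4ox* and 288 FPKM in WT (-0.40). *FBA2*, with 779 FPKM in *IDD4ox* and 1002 FPKM in WT, differed by -0.36. *PRK*, with 747 FPKM in *IDD4ox* and 910 FPKM in WT, differed by -0.28. *GAPA1* was close to WT, at 800 FPKM in *IDD4ox* and 836 FPKM in WT (-0.063).

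In *IDD4-AA* 9 of 10 genes were lower than in WT, but with a median of -0.093, against 44.9% of 18810 genes lower and 1.94% at least 1.5-fold lower (median over all genes 0.027). Of the 962 genes with at least 100 FPKM 52% were lower (median -0.012). *RBCS1B* again stood apart, at 2606 FPKM in *IDD4-AA*, against 4516 FPKM in WT (-0.79). *GAPB*, at 583 FPKM in *IDD4-AA* and 700 FPKM in WT (-0.26), and *FBA2*, at 867 FPKM in *IDD4-AA* and 1002 FPKM in WT (-0.21), came next. *PRK* was level with WT, with 911 FPKM in *IDD4-AA* and 910 FPKM in WT, and turned lower with median-of-ratios scaling. The other 6 lay between -0.12 and -0.022.

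In *IDD4-DD* 8 of 10 were lower than in WT, with a median of -0.19, against 45.3% of 18900 genes lower and 2.32% at least 1.5-fold lower (median over all genes 0.027). Of the 984 genes with at least 100 FPKM 48.8% were lower (median 0.0054). *RBCS1B* was at 2827 FPKM in *IDD4-DD*, against 4516 FPKM in WT (-0.68), the only one past 1.5-fold. *RBCS2B* was close behind, at 3569 FPKM in *IDD4-DD*, against 5341 FPKM in WT (-0.58). *RBCS3B* went the other way, at 10748 FPKM in *IDD4-DD*, against 10305 FPKM in WT (0.061). *GAPA1* was 0.014 higher, and lower under median-of-ratios scaling. *RCA*, *PRK*, *SBPASE*, *FBA2* and *GAPB* lay between -0.27 and -0.18, and *RBCS1A* differed by -0.14. The sum of the 3 tandem genes was 15583 FPKM in *IDD4ox*, 17265 FPKM in *IDD4-AA* and 17143 FPKM in *IDD4-DD*, against 20161 FPKM in WT, and the share of *RBCS1B* in it was 17.0%, 15.1% and 16.5%, against 22.4%. The 3 lines were compared with the same WT value, so that the low *RBCS1B* in all of them shares that one reference. The root marker sum was also lower in all 3 lines than in this WT (given above), and its part in these differences was not tested. That sum leans on a few high markers. The highest in WT, *IRT1*, was at 165 FPKM, against 74.6, 41.5 and 96.7 FPKM in *IDD4ox*, *IDD4-AA* and *IDD4-DD*. Of 15 root markers compared, 11, 13 and 13 were lower in these lines and 4, 2 and 2 higher. Of all genes, 38%, 44.9% and 45.3% were lower.

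The lines were also set against each other. In *IDD4-DD* 7 of 10 genes were lower than in *IDD4-AA*, against 51.2% of 18899 genes, with a median of -0.017, and none was 1.5-fold lower, against 1.33%. The exception in size was *RBCS2B*, at 3569 FPKM in *IDD4-DD*, against 5018 FPKM in *IDD4-AA* (-0.49). The next largest was *PRK*, at 801 FPKM in *IDD4-DD*, against 911 FPKM in *IDD4-AA* (-0.19). *RBCS3B* was higher, at 10748 FPKM in *IDD4-DD*, against 9640 FPKM in *IDD4-AA* (0.16). *GAPB* was at -0.0051 in this comparison and turned higher with median-of-ratios scaling. Compared with *IDD4ox*, *IDD4-DD* had higher values for 9 of 10 genes, with a median of 0.15. Only *RBCS2B* was lower (-0.16), so that 1 of 10 was lower, against 59.9% of 18976 genes, and none was 1.5-fold lower, against 1.64%. In *IDD4-AA* the median against *IDD4ox* was 0.22, the highest of the 10 comparisons, with *SBPASE* at 280 FPKM in *IDD4-AA*, against 218 FPKM in *IDD4ox* (0.36), and *RCA* at 1761 FPKM in *IDD4-AA*, against 1385 FPKM in *IDD4ox* (0.35). Again 1 of 10 was lower (*RBCS1B*, -0.024, and higher with median-of-ratios scaling), against 57.1% of 18955 genes, and none was 1.5-fold lower, against 3.38%. The medians over all genes in these 3 comparisons lay between -0.045 and -0.0067. Transcript of *IDD4* was at like levels in *IDD4ox* and *IDD4-DD* and lower in *IDD4-AA*, as given above. The paper, by contrast, describes its *IDD4-AA* and *IDD4-DD* lines as picked for similar transcript, with equal protein by immunoblot. *IDD4ox* carries GFP and the other lines RFP. In comparisons with *IDD4ox* the tag and the altered sites cannot be told apart.

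Of 15 other genes of the cycle, 11 were lower in untreated *idd4* than in WT (median -0.28), against 60.8% of all genes and 75% of those with at least 100 FPKM. After flg22, 13 were lower in *idd4* than in WT (-0.26), against 39.6% of all genes. Between flg22 and untreated, 12 were lower after flg22 in *idd4* (-0.20) and 12 in WT (-0.22), against 54.4% and 61%. Against their WT, 14 were lower in *IDD4ox* (-0.20), 10 in *IDD4-AA* (-0.084) and 11 in *IDD4-DD* (-0.13), against 38%, 44.9% and 45.3% of all genes. With equal nuclear sums only 5 of the 15 were lower in untreated *idd4* (median 0.026), and 11 were with the sum over genes above 0 in every group (-0.13). Of all genes, 16.2% and 35.1% were lower under these scalings. The plastid transketolase gene *TKL1* was at 261 FPKM after flg22, against 384 FPKM untreated, in *idd4* (-0.55) and at 301 FPKM after flg22, against 447 FPKM untreated, in WT (-0.57). *FBA1*, a second plastid aldolase gene, was at 478 FPKM after flg22, against 769 FPKM untreated, in *idd4* (-0.69) and at 620 FPKM after flg22, against 1019 FPKM untreated, in WT (-0.71). It thus had much lower values after flg22 where *FBA2* did not. *GAPA2*, the second A subunit gene, differed by -0.51 in *idd4* and -0.48 in WT.

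A CP12 protein holds GAPDH and PRK in an inactive complex in the dark. *CP12-3* was the one gene of the list more than 1.5-fold higher after flg22, at 162 FPKM after flg22, against 49.0 FPKM untreated, in *idd4* (1.70) and at 128 FPKM after flg22, against 45.8 FPKM untreated, in WT (1.46). *CP12-1* was 0.30 higher in *idd4* and 0.24 higher in WT, and *CP12-2* differed by -0.17 in *idd4* and -0.32 in WT. Equal nuclear sums shift every change after flg22 down by 0.46 in *idd4* and 0.14 in WT, which takes *CP12-1* below 0 in *idd4*. With the sum over genes above 0 in every group the shifts are 0.43 in *idd4* and 0.28 in WT, and *CP12-1* falls below 0 in both. The epimerase gene *RPE* was at 28.1 FPKM in untreated *idd4*, against 52.5 FPKM in untreated WT (-0.88), the largest decrease of the list, while after flg22 it was at 31.6 FPKM in *idd4* and 31.3 FPKM in WT. The plastid gene ATCG00490, for the large subunit of Rubisco, had values between 41.5 and 182 FPKM over the 8 groups, with the highest in *IDD4-DD*, against 56.4 FPKM in WT. It was higher in untreated *idd4*, at 158 FPKM, than in untreated WT, at 109 FPKM. After flg22 it changed by -0.68 in *idd4* and 0.18 in WT. How fully plastid transcripts were captured in these libraries was not tested. The remaining genes, *PGK1*, AT1G56190 (a phosphoglycerate kinase), *TIM*, *FBA3*, *HCEF1*, *TKL2* and AT3G04790 (a ribose-5-phosphate isomerase), were within 1.5-fold of untreated in both genotypes on the log2(FPKM + 1) scale. For *TKL2*, a low gene at 7.88 FPKM after flg22, against 12.1 FPKM untreated, in *idd4*, the plain ratio was 0.650, past 1.5-fold.

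**Figure D4:**
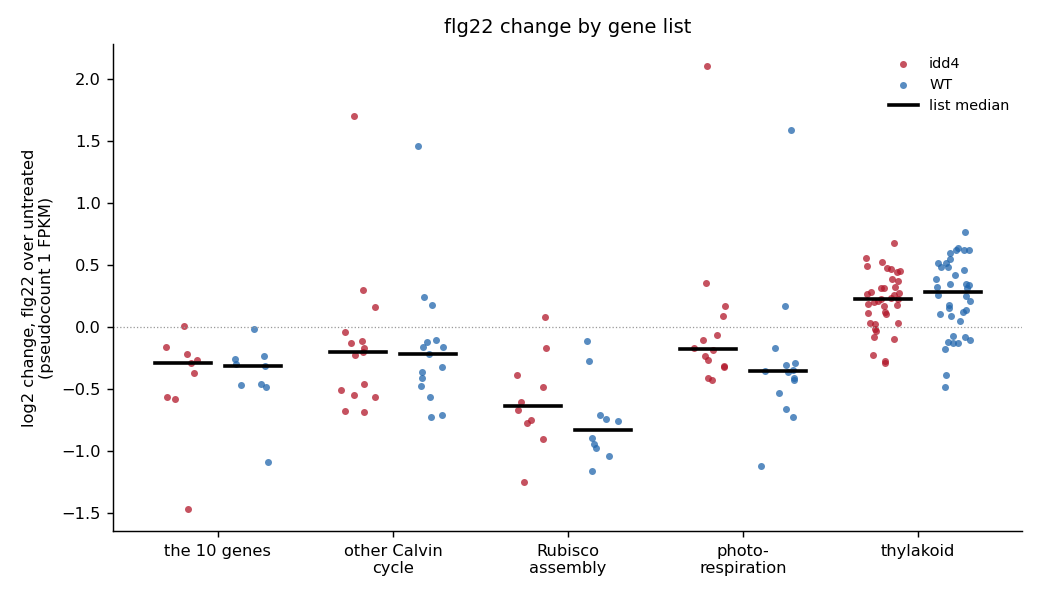
Log2 change (FPKM plus 1) after flg22 over untreated for each gene of 5 lists, in *idd4* (red, left) and WT (blue, right), with the list median as a black bar and no error. The 10 genes, the other Calvin cycle genes, the Rubisco assembly factors and the photorespiration genes have medians below 0, and the thylakoid genes have medians above 0.

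After flg22 the members parted from the genes of the light reactions. The list of 38 thylakoid genes (antenna proteins, photosystem subunits, electron carriers and ATP synthase) had a median of 0.23 in *idd4*, with 31 higher, and 0.29 in WT, with 29 higher. Of all genes 54.4% were lower after flg22 in *idd4* and 61% in WT, and of those with at least 100 FPKM 37.8% and 45.3%. The gap between the medians of members and thylakoid genes was -0.52 in *idd4* and -0.60 in WT, and a common scaling leaves it nearly as it is. The direction of the thylakoid list alone does turn with the scaling: with equal nuclear sums its median was -0.23 in *idd4*, with 32 lower, and 0.14 in WT. Under that scaling 73.3% of all genes were lower in *idd4* and 67.6% in WT. With the sum over genes above 0 in every group the thylakoid median was -0.20 in *idd4*, with 30 lower. In WT it was 0.0058, with 19 lower and 19 higher. Of all genes 72.5% were then lower in *idd4* and 72.7% in WT. The antenna gene *LHCB2.1* was at 3899 FPKM after flg22, against 2440 FPKM untreated, in *idd4* (0.68) and at 4323 FPKM after flg22, against 2771 FPKM untreated, in WT (0.64). Between genotypes the lists lay close together: all 38 thylakoid genes were lower in *idd4* than in WT, untreated (median -0.29) and after flg22 (-0.32), close to the members' -0.36 and -0.33. Of all genes 60.8% were lower untreated and 39.6% after flg22, and of those with at least 100 FPKM 75% and 38%. Untreated, 26 of the 38 were higher instead with equal nuclear sums, where 16.2% of all genes were lower. In *IDD4ox* the thylakoid median was -0.095, in *IDD4-AA* -0.038 and in *IDD4-DD* -0.032, nearer to 0 than the members' -0.39, -0.093 and -0.19.

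Chaperones and assembly factors of Rubisco had the lowest median of the lists after flg22. In *idd4* 9 of 10 were lower after flg22, 6 of them at least 1.5-fold (median -0.64), and in WT 10 of 10 were lower, 8 of them at least 1.5-fold (-0.83). Of all genes, 54.4% were lower in *idd4* and 61% in WT, and 19.2% and 22% were at least 1.5-fold lower. *CPN60B*, the beta subunit gene of the chloroplast chaperonin, was at 18.0 FPKM in WT after flg22, against 38.2 FPKM in untreated WT (-1.05). The gene AT3G04550, annotated as a Rubisco accumulation factor, was at 30.6 FPKM after flg22, against 74.3 FPKM untreated, in *idd4* (-1.25).

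Photorespiration recycles the product of Rubisco's reaction with oxygen. All 14 listed genes were lower in untreated *idd4* than in WT (median -0.40), against 60.8% of all genes and 75% of those with at least 100 FPKM. With equal nuclear sums 11 of 14 were lower (-0.082), against 16.2% of all genes. The peroxisomal hydroxypyruvate reductase gene *HPR1* was at 22.3 FPKM in *idd4*, against 45.8 FPKM in WT (-1.01). The aminotransferase gene *GGT1* was at 106 FPKM in *idd4*, against 187 FPKM in WT (-0.82). In *IDD4ox* 13 of 14 were lower (-0.22), against 38% of all genes. After flg22 the medians were -0.18 in *idd4* and -0.36 in WT, and 10 of 14 were lower in *idd4* and 12 of 14 in WT, against 54.4% and 61% of all genes. AT1G80380 had the largest increase, at 290 FPKM after flg22, against 66.6 FPKM untreated, in *idd4* (2.11) and at 251 FPKM after flg22, against 82.7 FPKM untreated, in WT (1.59).

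Among the members the pattern over the 6 changes against WT (untreated *idd4*, WT and *idd4* after flg22, and the 3 expressor lines) was closest to the median member for *PRK* and *RCA*, whose root mean square distance on the log2 scale was 0.054 and 0.067. It was farthest for *RBCS1B* (0.63), followed by *FBA2* (0.19), *RBCS2B* (0.175) and *GAPA1* (0.173). *RBCS1A* could not be placed. The median was taken over these same 9 members, so that a member can supply an entry of it. *PRK* did so in untreated *idd4* (-0.36) and *RCA* in WT after flg22 (-0.32). Distances of members and of other genes are therefore not on an equal footing. The same distance was computed for the 492 other genes with at least 100 FPKM in every group. The 8 nearest were *GOX1* (glycolate oxidase, photorespiration; 0.086), AT1G11860 (glycine cleavage T-protein; 0.096), *CP12-2* (0.11), AT4G01150 (thylakoid curvature protein; 0.11), *THI1* (thiazole synthesis; 0.11), *CA1* (carbonic anhydrase; 0.13), *TKL1* (0.13) and *ACP4* (acyl carrier protein; 0.13). Of these, 4 belong to the lists of photorespiration or other Calvin cycle genes. *GOX1*, the nearest, had changes of -0.41 in untreated *idd4*, -0.58 in *idd4* after flg22, -0.36 in WT after flg22, and -0.36, -0.13 and -0.31 in *IDD4ox*, *IDD4-AA* and *IDD4-DD*, against -0.36, -0.73, -0.32, -0.38, -0.090 and -0.19 for the median member.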

How the data were processed

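RNA of whole 14-day-old seedlings was sequenced as 101-base paired-end reads. Per the study's methods and the labels, Trimmomatic was used for trimming, TopHat for alignment to TAIR10 (at most 2 mismatches) and Cufflinks for quantification. The deposited values are FPKM on a linear scale, 1 per gene and group, combined by the authors over replicates, and carry no error, test or depth. The labels list 3 and 2 samples per group, the paper 3 throughout. The 8 chromatin samples were not analysed here.

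The identifier column did not match the value columns (21642 of 27371 identifiers were out of alphabetical order), so identifiers were sorted. Sorted identifiers gave the untreated values of the study's own table, within a relative tolerance of 0.001, for 1997 of 1997 genes and 6 of 6 members held there, against 499 and 0 as deposited. Only the untreated *idd4* and WT values of the first experiment were checked in this way, and those of the expressor lines were not.

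Changes are log2(FPKM + 1) differences, which understate the change of low genes. A gene was compared where both values were above 0 and one was at least 1 FPKM, and a 1.5-fold change was the size counted. Named were all members, every other Calvin cycle gene, up to 2 rises and 2 falls of each other list and comparison, and the 8 genes nearest in pattern. The root marker highest in WT of the second experiment was named too. The members and lists were chosen with earlier results of these data known. Sequences came from RefSeq TAIR10.1, whose locus tags matched 26703 identifiers, and coding sequences were compared in place of the proteins planned. Alternatives were the pseudocount, scalings, summed or left-out *RBCS* genes, the identifier order, the fold and the filters. Python 3.11.15, pandas 2.3.3 and numpy 2.4.6 were used.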

Additional observations from a re-analysis of the deposited data

How the results depend on the processing

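No replicate could be left out, since the tables hold 1 value per group. No paired analysis was possible because the columns are group values without replicate numbers. Of 339 values recomputed under an alternative, 284 stayed within 0.1 on the log2 scale (medians) or 1.5 times (counts and shares). As deposited no median of the members reached 1.5-fold, the largest in size being -0.39 for *IDD4ox* against WT. Some medians changed sign under an alternative. Pseudocounts of 0.1 or none moved nothing beyond this. Scaling mattered in the flg22 experiment. With equal summed nuclear FPKM the members' median was -0.046 for untreated *idd4* against WT, -0.75 for flg22 in *idd4*, -0.46 for flg22 in WT and -0.29 for the difference of the flg22 changes, and 8, 4 and 3 members were at least 1.5-fold lower in the last 3, against 40.4%, 27.9% and 7.88% of all genes. With that sum over genes above 0 in every group, an alternative chosen after seeing the data, the same medians were -0.21, -0.72, -0.60 and -0.13, and 8 (*idd4*) and 5 (WT) members were 1.5-fold lower after flg22, against 38.6% and 35.6% of all genes. Median-of-ratios scaling gave -0.075 for the difference, and 2 members 1.5-fold lower for flg22 in *idd4* and for *IDD4-DD* against WT, against 19.5% and 2.56% of all genes. With all 4 *RBCS* genes summed, which counts the untreated 0 of *RBCS1A*, or with them left out, 0 units were 1.5-fold lower in each comparison, and the difference of the flg22 changes was 0.16 and 0.17. With the 3 tandem genes alone summed, also chosen after seeing the data, that sum was 1.5-fold lower for flg22 in *idd4* (-0.71), 0 units were in each other comparison, and the difference was 0.16. At 2-fold, 0 members were lower for *idd4* against WT after flg22, *IDD4ox*, *IDD4-AA* and *IDD4-DD* against WT. With identifiers as deposited, which pair values with other genes, the medians were -0.23 and -0.044 for *idd4* against WT (untreated, flg22), 0.17 and -0.10 for flg22 in *idd4* and WT with 2 and 3 members 1.5-fold higher, 0.099 for *IDD4ox* against WT, -0.25 and -0.069 for *IDD4-DD* and *IDD4-AA* against *IDD4ox*, and 0 members were 1.5-fold lower in the expressor lines against WT.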
